A study of Mus musculus with 6 samples.

Results

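The GLUT proteins, encoded by the Slc2a genes, are membrane carriers that let hexoses and related solutes cross a membrane down their concentration gradient. The 10 genes described here are those that carry 1 of 10 listed Slc2a symbols (Slc2a1 to Slc2a6, Slc2a8 to Slc2a10 and Slc2a13) in a table of 45777 genes, and all 10 were found. They were measured by total RNA sequencing of mouse small intestine in 3 libraries labelled PKCzeta overexpression (replicates 2-1, 4-1 and 4-2) and 3 labelled GFP control (replicates 1-1, 1-4 and 3-1). Prkcz encodes PKCzeta, one of the atypical kinases of the protein kinase C family, and GFP, a fluorescent protein, marks the control. Every title opens with DIO, an abbreviation left unexplained in the labels, which also give no strain, age, vector or driving promoter. The series title names atypical PKC and GLUT1, the product of Slc2a1, together with gastric bypass, so the question for this family is whether its genes differ between the labels.

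In enterocytes, the absorptive cells of the villus, sodium-coupled SGLT1 carries glucose and galactose in from the gut lumen, GLUT5 carries fructose in, and GLUT2 passes all of these sugars on towards the blood. GLUT1 is the carrier of most growing cells and of the endothelium of the brain, and GLUT3 is a high-affinity carrier of neurons and white blood cells. GLUT4 responds to insulin in muscle and fat, GLUT9 carries urate, and the others work largely on membranes inside the cell.

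Prkcz itself stood at 82.5, 100.07 and 57.0 CPM in the PKCzeta-labelled libraries, against 70.5, 98.6 and 96.9 CPM in the GFP-labelled ones. CPM stands for read counts at an equal effective depth, set with TMM, a correction for differences in library make-up. The targeted gene thus showed no higher level with its own label (log2 fold change -0.15, SE 0.24), and every direction below is a direction between labels, PKCzeta minus GFP. Whether reads of the introduced construct are counted in this mouse gene row was not tested. Total counts ran from 77573133 to 87572356 in the PKCzeta-labelled libraries and from 85411847 to 93742978 in the GFP-labelled ones. Ribosomal RNA took 0.956% to 4.44% and 1.35% to 4.66% of them, and mitochondrial genes 2.92% to 9.19% and 3.37% to 10.7%, in the same order of groups. PKCzeta replicate 4-2 had the lowest share of both and the highest TMM factor (1.19, against 0.881 to 1.05 in the other libraries). The labelled tissue went with its markers, since 17 enterocyte genes summed to between 29159 and 47935 CPM with the PKCzeta label and between 58824 and 66014 CPM with the GFP label. All 17 were detected, and the summed level did not overlap between the groups.

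The stretch of 250 bases before the start of Slc2a1, Slc2a2 and Slc2a5 is printed because the results turn on these 3 genes: Slc2a1 is the gene in the series title, and Slc2a2 and Slc2a5 are the family's 2 most abundant members here. The sequences are RefSeq's, build GRCm38.p6 (the assembly that mm10 names), 5′ to 3′ on the plus strand, which is the strand of all 3 genes. They lie at chr4:119108495-119108744, chr3:28697653-28697902 and chr4:150119094-150119343. Capitals mark matches, on either strand, to 5 motifs. The first is the GC box GGGCGG, a binding site of the Sp1 family of activators. Next are the TATA box, written TATAAA, where the basal machinery can sit, and the E box, bound by factors such as ChREBP with its partner and spelled CACGTG. The core of a hypoxia response element, which also lies within the E box, reads ACGTG. The HNF1 core, after a transcription factor of gut and liver epithelium, reads GTTAAT in the search used here.
Slc2a1: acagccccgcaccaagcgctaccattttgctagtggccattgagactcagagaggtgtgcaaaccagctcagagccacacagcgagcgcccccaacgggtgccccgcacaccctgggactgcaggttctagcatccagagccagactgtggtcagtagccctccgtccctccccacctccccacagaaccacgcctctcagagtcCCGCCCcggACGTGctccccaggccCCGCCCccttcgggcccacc
Slc2a2: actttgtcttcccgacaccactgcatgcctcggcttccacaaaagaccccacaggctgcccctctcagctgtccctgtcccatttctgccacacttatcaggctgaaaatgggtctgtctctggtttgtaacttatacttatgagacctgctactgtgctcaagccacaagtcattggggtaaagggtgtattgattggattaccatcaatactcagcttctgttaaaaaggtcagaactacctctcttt
Slc2a5: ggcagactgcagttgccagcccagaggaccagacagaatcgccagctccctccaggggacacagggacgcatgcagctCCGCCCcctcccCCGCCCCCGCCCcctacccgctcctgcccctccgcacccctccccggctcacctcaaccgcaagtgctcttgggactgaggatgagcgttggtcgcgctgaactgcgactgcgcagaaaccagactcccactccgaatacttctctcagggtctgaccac
The Slc2a1 stretch held 2 GC boxes on the reverse strand and 1 ACGTG, and the Slc2a5 stretch held 3 GC boxes, the last pair of them adjoining. The Slc2a2 stretch held no match to any of the 5, which says only that these letters are not in this window. GC content was 66.4% before Slc2a1, 47.2% before Slc2a2 and 66.4% before Slc2a5, where the median of 32851 promoters was 52.4%. Of those promoters 32.7% held a GC box, 12.4% a TATA box, 6.02% an E box, 16.6% an ACGTG and 6.43% an HNF1 core. Of the 10 members 8 had a promoter in the table.

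The comparison of the labels gave no call in the family. All 10 genes passed the filter on low counts, and 0 of the 10 fell under the 0.05 threshold after adjustment over all 18456 tested genes (edgeR, quasi-likelihood), as did 0 of those genes (0%; 1012 had an unadjusted p under 0.05). Slc2a3 was highest in all 3 PKCzeta-labelled libraries and Slc2a9 was lowest in all 3, while the groups overlapped for the other 8. That is 2 of 10 genes without overlap, where 10.4% of all tested genes had none (4.72% higher and 5.66% lower). The same 2 genes had an unadjusted edgeR p under 0.05, as did 5.48% of all tested genes (2.41% higher and 3.07% lower). With only 10 members, 2 such genes are too few to be read as a result about the family, and the count was not tested. The log2 fold change was above 0 for 3 members and below 0 for 7, with a median of -0.27, where 54.3% of all tested genes lay above 0 and their median was 0.035. Nothing in the labels ties each library to its own animal, so the p-values may reflect only technical spread between samples. With 3 against 3, an exact permutation test cannot give a two-sided p below 0.1.

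**Figure D1:**
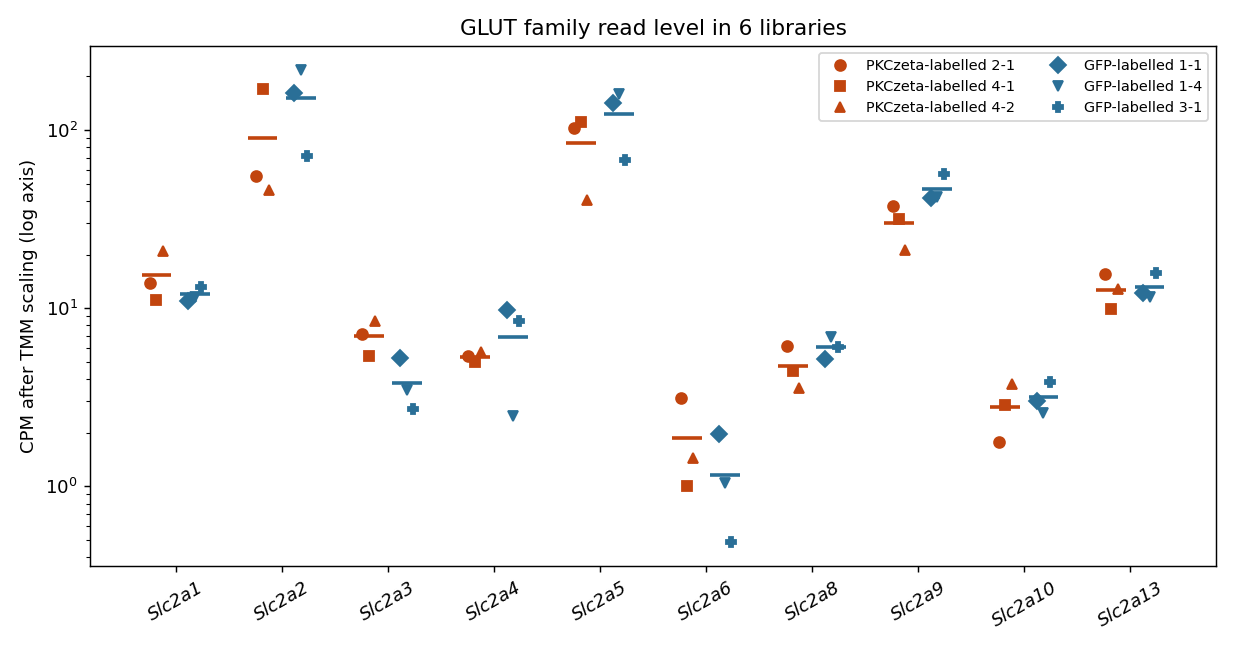
Each point is 1 library, on a log axis of CPM after TMM scaling, for 10 GLUT genes; PKCzeta-labelled libraries are red and to the left, GFP-labelled ones blue and to the right, and the bars are group means (n = 3 each). The groups separate for Slc2a3 (lowest PKCzeta-labelled value 5.39, highest GFP-labelled value 5.27 CPM) and Slc2a9 (highest PKCzeta-labelled value 37.2, lowest GFP-labelled value 41.6 CPM), and overlap for the other 8 genes.

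The levels of the family differed far more between its members than between the labels. To compare genes, the deposited TPM was used, which is scaled to transcript length. Slc2a2 averaged 48.2 ± 36.7 TPM with the PKCzeta label and 70.9 ± 38.7 TPM with the GFP label (SD, n = 3 each here and below). Slc2a5 followed with 36.3 ± 14.2 TPM and 47.6 ± 21.3 TPM, and Slc2a9 with 11.6 ± 1.51 TPM and 15.8 ± 1.95 TPM. Next was Slc2a1, at 8.47 ± 3.99 TPM with the PKCzeta label and 5.46 ± 0.318 TPM with the GFP label. Slc2a8, Slc2a4 and Slc2a13 averaged between 2.66 and 3.01 TPM with the PKCzeta label and between 2.35 and 3.37 TPM with the GFP label. Slc2a3, Slc2a10 and Slc2a6 averaged 2.40, 1.16 and 1.16 TPM with the PKCzeta label, and 1.14, 1.07 and 0.648 TPM with the GFP label.

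The order of the means was the same under both labels except at the bottom, where Slc2a6 stood above Slc2a10 with the PKCzeta label and below it with the GFP label. Of the 9 neighbouring pairs in that order, only Slc2a5 over Slc2a9 and Slc2a1 over Slc2a8 stayed apart over all 6 libraries, and on CPM per kilobase Slc2a5 over Slc2a9 did not. Within the GFP-labelled libraries, 2 more pairs were apart: Slc2a9 over Slc2a1 and Slc2a13 over Slc2a3. Within the PKCzeta-labelled ones, Slc2a3 over Slc2a10 was apart as well. Slc2a2 and Slc2a5 did not differ beyond their spread. Together with Slc2a9 they made up 79.8%, 89.9% and 67.8% of the summed TPM of the 10 genes in PKCzeta replicates 2-1, 4-1 and 4-2, and 88.8%, 92.2% and 80.9% in GFP replicates 1-1, 1-4 and 3-1. The lowest of these shares was that of PKCzeta replicate 4-2.

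**Figure D2:**
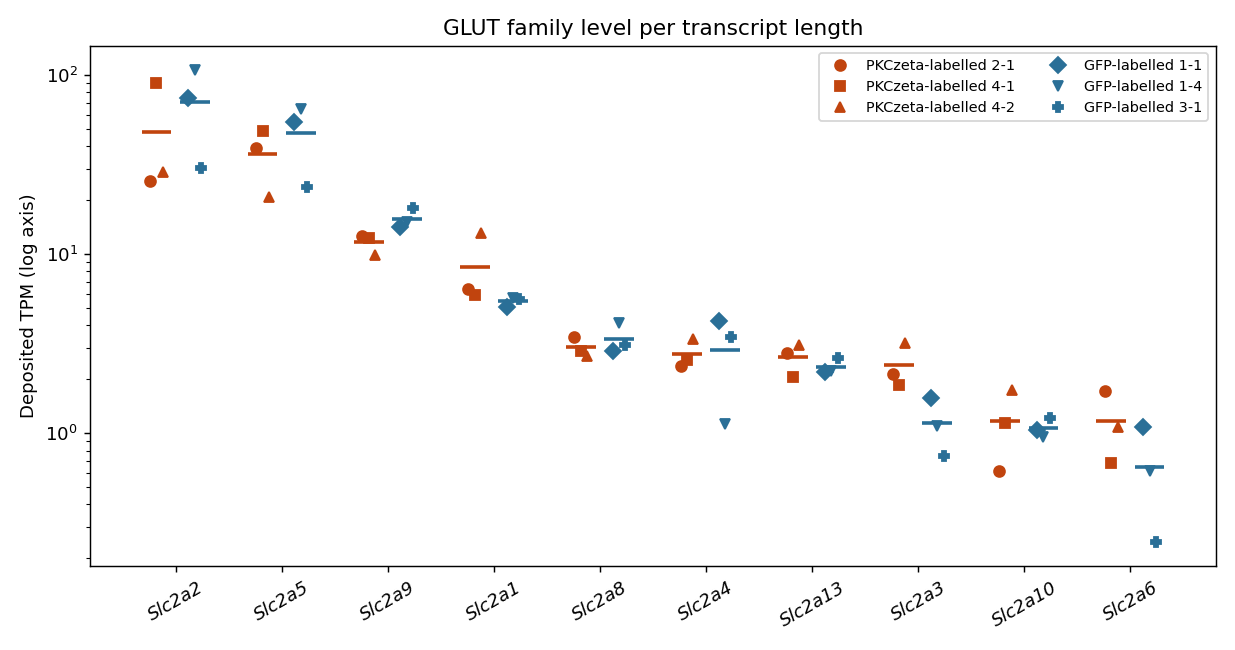
Deposited TPM on a log axis for the 10 GLUT genes, ordered by the GFP-labelled mean; each point is 1 library, PKCzeta-labelled ones red and to the left, GFP-labelled ones blue and to the right, and bars are group means (n = 3 each). The means run from 48.2 (Slc2a2) to 1.16 TPM (Slc2a10) with the PKCzeta label, and from 70.9 (Slc2a2) to 0.648 TPM (Slc2a6) with the GFP label.

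The carriers of absorbed sugar come first. Slc2a2 (Entrez 20526, chromosome 3 from 28697903 to 28728361 in GRCm38) had 4787, 13867 and 4820 reads in PKCzeta replicates 2-1, 4-1 and 4-2, or 55.04, 171 and 46.1 CPM. In GFP replicates 1-1, 1-4 and 3-1 it had 12877, 19131 and 5930 reads, or 162, 219 and 71.8 CPM. PKCzeta replicate 4-1 lay above GFP replicate 1-1, so the groups overlapped, and the highest library stood 4.74-fold above the lowest. On the log2 scale the difference was -0.74 (SE 0.58), its 95% interval reached from -2.09 to 0.62, and edgeR's adjusted p was 0.917. Leaving out PKCzeta replicate 4-1 gave -1.58, and leaving out GFP replicate 1-4 gave -0.37, neither past the threshold (edgeR adjusted p 0.855 and 0.864).

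Slc2a5 (Entrez 56485, chromosome 4 from 150119344 to 150144168) had 102, 111 and 40.4 CPM in the PKCzeta-labelled libraries, against 142, 159 and 67.5 CPM in the GFP-labelled ones. Its lowest library was PKCzeta replicate 4-2, and GFP replicate 3-1 lay below PKCzeta replicates 2-1 and 4-1. The log2 difference, -0.54 (SE 0.43), had a 95% interval from -1.53 to 0.45 and an edgeR adjusted p of 0.917, and stood at -0.20 without PKCzeta replicate 4-2. Within a library, the log2 ratio of Slc2a5 to Slc2a2 in TPM was 0.63, -0.89 and -0.46 with the PKCzeta label and -0.46, -0.73 and -0.36 with the GFP label. Slc2a5 exceeded Slc2a2 in PKCzeta replicate 2-1 alone. The next gene downstream, 4665 bases on, is Slc2a7, a family row outside the 10 members. It had 3.32, 5.28 and 2.11 CPM with the PKCzeta label and 6.38, 7.69 and 5.35 CPM with the GFP label (log2 fold change -0.86, SE 0.36, edgeR adjusted p 0.889), and its groups did not overlap.

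Both enterocyte carriers moved between libraries within each group, and so did markers of the upper small intestine. The 11 proximal markers, all detected, summed to 2152, 2757 and 1585 CPM in PKCzeta replicates 2-1, 4-1 and 4-2, against 4279, 5911 and 3164 CPM in GFP replicates 1-1, 1-4 and 3-1. These sums did not overlap between the groups, but 2 genes, Ces2e and Apoa4, made up most of them in every library. Ces2e gave 1325, 1344 and 831 CPM with the PKCzeta label and 1534, 1993 and 1955 CPM with the GFP label. Apoa4 gave 538, 857 and 580 CPM against 2081, 3034 and 772 CPM. Gene by gene, 3 of the 11 were lower without overlap, beside 5.66% of all tested genes. Of the 11, 1 was above and 10 below 0, with 6 lower at an unadjusted edgeR p under 0.05 (beside 3.07% of all tested genes) and 0 past the adjusted threshold. Within each group the library with the highest Slc2a2 was also the one with the highest proximal sum, and PKCzeta replicate 4-2 was lowest in both. Across the groups the order differed: GFP replicate 3-1 had a higher proximal sum than PKCzeta replicate 4-1 but less Slc2a2 (71.8 against 171 CPM). The 9 distal markers summed to between 7195 and 9115 CPM with the PKCzeta label and between 8629 and 11640 CPM with the GFP label. Most of them, too, were lower: 2 were above and 7 below 0 (median -0.54). Of the 9, 3 were lower at an unadjusted edgeR p under 0.05, beside 3.07% of all tested genes, and 0 passed the adjusted threshold. The part of the enterocyte and proximal markers in the values of Slc2a2 and Slc2a5 was not tested. In bulk tissue, fewer cells of a type and less RNA per cell cannot be told apart. With a score of 6 epithelial genes (Vil1, Epcam, Cdh1, Krt8, Krt18 and Krt19) as a covariate, the log2 fold change was -0.84 for Slc2a2 and -0.75 for Slc2a5 (edgeR adjusted p 0.748 and 0.704). That score overlapped between the groups, at -0.17, -0.14 and 0.099 with the PKCzeta label and -0.25, 0.30 and 0.16 with the GFP label. Its 6 genes are among the 17 enterocyte genes, of which only Krt18 and Krt19 were above 0 and 15 were below (median -0.59). Of the 17, 9 were lower at an unadjusted edgeR p under 0.05, beside 3.07% of all tested genes, and 0 passed the adjusted threshold. The score thus does not carry the difference of the whole enterocyte list, and the fit is no adjustment for it.

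The genes whose pattern over the 6 libraries was most like that of Slc2a2 were Apoc2, Ephx2, Rbp2, Cdr2 and Fabp1. Likeness is the root mean square difference of log2 CPM, each gene centred on its own mean, among 8238 other genes with a mean of at least 10 CPM. It was 0.31 for Apoc2, an apolipoprotein, and 0.37 for Fabp1, a fatty acid binding protein, where the median over those genes was 0.91 and the spread of Slc2a2 itself was 0.87. Rbp2, which binds retinol in enterocytes, stood at 124, 179 and 69.96 CPM in the PKCzeta-labelled libraries and 288, 357 and 138 CPM in the GFP-labelled ones. For Slc2a5 the nearest were Nt5e, Ly6m, Lap3, Tkfc and Ephx2, at 0.14 to 0.28 (median 0.72). Nt5e, an ecto-enzyme that makes adenosine, had 132, 172 and 71.3 CPM against 217, 219.9 and 97.95 CPM. Tkfc, a kinase of the fructose pathway, had 128, 138 and 78.6 CPM against 160.05, 195.9 and 86.5 CPM. These are descriptions of 6 libraries that share their depth and make-up.

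Slc2a9 (Entrez 117591, chromosome 5 from 38349272 to 38503147) was the family's lower gene without overlap. It had 3239, 2584 and 2226 reads in PKCzeta replicates 2-1, 4-1 and 4-2, or 37.2, 31.8 and 21.3 CPM, against 3302, 3664 and 4679 reads, or 41.6, 41.9 and 56.6 CPM, in GFP replicates 1-1, 1-4 and 3-1. The nearest libraries of the 2 groups, PKCzeta replicate 2-1 and GFP replicate 1-1, lay close together. It averaged 30.1 ± 8.10 CPM with the PKCzeta label and 46.7 ± 8.60 CPM with the GFP label. The log2 difference was -0.63, with an SE of 0.24 and a 95% interval from -1.19 to -0.082. The unadjusted edgeR p was 0.0293 and the adjusted p 0.873, with an exact two-sided permutation p of 0.1, the smallest that 3 against 3 can give. Of all tested genes 3.35% had a p as small or smaller. Leaving out PKCzeta replicate 4-2 gave -0.43, leaving out GFP replicate 3-1 gave -0.46, and leaving out PKCzeta replicate 2-1 gave -0.85. The unadjusted edgeR p was above 0.05 without PKCzeta replicate 4-1 (0.054) or 4-2 (0.083), and without GFP replicate 3-1 (0.130).

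Slc2a1 (Entrez 20525, chromosome 4 from 119108745 to 119137330) had 1199, 907 and 2197 reads in PKCzeta replicates 2-1, 4-1 and 4-2, or 13.8, 11.2 and 21.02 CPM. In GFP replicates 1-1, 1-4 and 3-1 it had 876, 1015 and 1092 reads, or 11.04, 11.6 and 13.2 CPM. PKCzeta replicate 4-2 stood above the 5 other libraries, which lay between 11.04 and 13.8 CPM. The log2 difference, 0.36 (SE 0.26), had a 95% interval from -0.25 to 0.96 and edgeR gave it an adjusted p of 0.917. The exact permutation test, two-sided, gave p = 0.3. The difference was 0.064 without that library. The log2 ratio of Slc2a1 to Slc2a2 in TPM was -1.99, -3.93 and -1.13 with the PKCzeta label and -3.88, -4.24 and -2.44 with the GFP label. Slc2a2 thus exceeded Slc2a1 in every library, and least in PKCzeta replicate 4-2. The share of Slc2a1 in the summed TPM of the family was 6.62%, 3.51% and 14.9% with the PKCzeta label and 3.15%, 2.80% and 6.27% with the GFP label.

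Markers of other cell types also varied between libraries. The 7 red cell genes summed to 81.1, 22.2 and 45.97 CPM with the PKCzeta label and 88.1, 57.3 and 304 CPM with the GFP label, with the highest value in GFP replicate 3-1. The 10 endothelial genes summed to 71.7, 64.9 and 90.6 CPM against 79.1, 81.3 and 69.4 CPM, highest in PKCzeta replicate 4-2. The 10 genes of cycling and stem cells summed to 656, 785 and 1228 CPM against 747, 1096 and 756 CPM, with the same library highest. Their part in the Slc2a1 value was not tested. The nearest patterns to Slc2a1 were those of Itga2, Clec7a, Trp53bp1, Dtymk and Cacybp, at 0.11 to 0.13 (median 0.39). Itga2, an integrin subunit that binds collagen, had 56.2, 42.1 and 77.97 CPM against 51.1, 44.01 and 50.2 CPM.

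Slc2a3 (Entrez 20527, chromosome 6 from 122727809 to 122802363) was the family's higher gene without overlap. It had 625, 438 and 885 reads in PKCzeta replicates 2-1, 4-1 and 4-2, or 7.19, 5.39 and 8.47 CPM, against 418, 303 and 225 reads, or 5.27, 3.46 and 2.72 CPM, in GFP replicates 1-1, 1-4 and 3-1. PKCzeta replicate 4-1 and GFP replicate 1-1 were almost level. It averaged 7.01 ± 1.55 CPM with the PKCzeta label and 3.82 ± 1.31 CPM with the GFP label. The log2 difference was 0.88, with an SE of 0.32 and a 95% interval from 0.15 to 1.61. The unadjusted edgeR p was 0.0241, which 2.75% of all tested genes equalled or undercut, and the adjusted p was 0.870. The exact two-sided permutation p was 0.1, again the smallest that this design allows. Without each library in turn the log2 fold change lay between 0.68 and 1.17. The unadjusted edgeR p was above 0.05 without PKCzeta replicate 2-1 (0.051) or 4-2 (0.075). It was also above 0.05 without GFP replicate 1-4 (0.065) or 3-1 (0.077). DESeq2 on all libraries gave a log2 fold change of 0.86 with an adjusted p of 0.372. A pseudogene, Gm4482, lies inside the RefSeq span of Slc2a3 and had 36 to 92 reads of its own per library.

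Markers of white blood cells, which carry much GLUT3, are given beside it. Of 12 neutrophil markers 9 were tested, of which 8 had values above and 1 below 0, with 6 higher at an unadjusted edgeR p under 0.05 (2.41% of all tested genes were) and 0 past the adjusted threshold. They summed to 21.6, 68.9 and 65.8 CPM in PKCzeta replicates 2-1, 4-1 and 4-2, against 15.6, 24.8 and 19.02 CPM in GFP replicates 1-1, 1-4 and 3-1. The calprotectin gene S100a8 had 1.86, 15.1 and 8.31 CPM against 1.82, 1.02 and 0.387 CPM. The 3 markers too low to test, Ly6g, Ngp and Camp, lay between 0 and 0.861 CPM with the PKCzeta label and between 0 and 0.0378 CPM with the GFP label. The neutrophil sum of PKCzeta replicate 2-1 lay inside the range of the GFP-labelled sums. Cd177 alone gave 13.4, 14.1 and 32.0 CPM of these sums with the PKCzeta label, and 8.06, 16.2 and 15.7 CPM with the GFP label. Of the 9 tested markers 4 were higher without overlap, where 4.72% of all tested genes were. Among them, Cxcr2 lay between 0 and 0.446 CPM and Mmp8 between 0 and 0.309 CPM with the GFP label. Both had 0 CPM in GFP replicate 3-1 and passed the filter on low counts only with PKCzeta-labelled libraries counted. The shares over all tested genes are thus no plain yardstick for these genes, which also had an unadjusted edgeR p under 0.05. PKCzeta replicate 4-1 had the highest neutrophil sum and the lowest Slc2a3 of its group. Macrophage markers summed to between 421 and 485 CPM and between 316 and 435 CPM, and lymphoid markers to between 939 and 1347 CPM and between 562 and 2191 CPM. Of 12 macrophage genes 11 were above 0 (median 0.25), and of 12 lymphoid genes 9 were (median 0.68), beside 54.3% of all tested genes. In both lists 0 had an unadjusted edgeR p under 0.05. The antibody chain gene Jchain alone made up 2074 CPM of the lymphoid sum of 2191 CPM in GFP replicate 1-4. The 10 markers of neurons and glia summed to 21.3, 34.4 and 28.2 CPM against 22.01, 23.2 and 22.8 CPM. The part of these cells in the Slc2a3 difference was not tested.

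Slc2a6 (Entrez 227659, chromosome 2 from 27021363 to 27028000), which encodes a carrier of macrophages and other white cells, was the least counted member, with 40 to 271 reads per library. It had 3.12, 1.01 and 1.44 CPM with the PKCzeta label and 1.95, 1.04 and 0.484 CPM with the GFP label. Its spread was the widest of the family, with the top library, PKCzeta replicate 2-1, 6.44-fold above the bottom one, GFP replicate 3-1. The log2 fold change was 0.68 (SE 0.59, edgeR adjusted p 0.917), and 0.041 without PKCzeta replicate 2-1. Macrophage markers summed to 421, 485 and 437 CPM in PKCzeta replicates 2-1, 4-1 and 4-2, against 435, 398 and 316 CPM in GFP replicates 1-1, 1-4 and 3-1. They were lowest in GFP replicate 3-1, as Slc2a6 was. Their highest sum was in PKCzeta replicate 4-1, where Slc2a6 had 1.01 CPM, and PKCzeta replicate 2-1, the top library of Slc2a6, had the lowest sum of its group. The part of these cells in the Slc2a6 values was not tested.

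**Figure D3:**
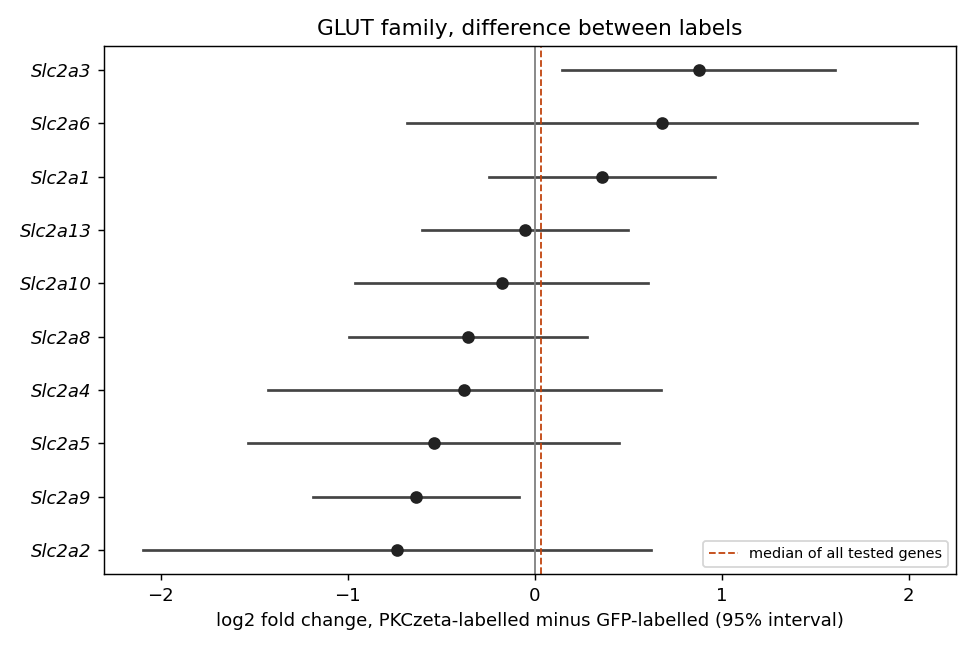
Log2 fold change, PKCzeta-labelled minus GFP-labelled, with its 95% interval for each of the 10 GLUT genes in edgeR's fit of all 18456 genes (n = 3 each). The solid line is 0 and the dashed line the median of all tested genes, 0.035. The intervals of Slc2a3 (0.15 to 1.61) and Slc2a9 (-1.19 to -0.082) lie to 1 side of 0, and the other 8 include it.

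Slc2a4 (Entrez 20528, chromosome 11 from 69942286 to 69948216), the insulin-responsive carrier, had 5.37, 4.98 and 5.67 CPM with the PKCzeta label and 9.81, 2.48 and 8.51 CPM with the GFP label. The PKCzeta-labelled values lay close together, between the low GFP replicate 1-4 and the 2 high GFP-labelled libraries. The log2 fold change was -0.38 (SE 0.46, edgeR adjusted p 0.931) and -0.78 without GFP replicate 1-4 (edgeR adjusted p 0.652). It was -0.065 without GFP replicate 1-1 and -0.20 without GFP replicate 3-1. Smooth muscle markers showed the same low library: the 10 genes summed to 1333, 1522 and 1246 CPM in PKCzeta replicates 2-1, 4-1 and 4-2, against 1874, 867 and 1897 CPM in GFP replicates 1-1, 1-4 and 3-1. The 10 adipocyte markers summed to 131, 148 and 86.5 CPM against 159, 179 and 133 CPM, highest in GFP replicate 1-4, the library lowest in Slc2a4. The part of either tissue in the Slc2a4 values was not tested.

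The remaining members work on inner membranes or carry other solutes. Slc2a8 (Entrez 56017, chromosome 2 from 32972981 to 32982083), an intracellular hexose carrier, had 6.15, 4.45 and 3.56 CPM against 5.16, 6.93 and 6.06 CPM, in PKCzeta-labelled and GFP-labelled libraries. Its log2 difference, -0.36 (SE 0.28), had a 95% interval from -0.99 to 0.28, and was -0.63 without PKCzeta replicate 2-1 and -0.19 without PKCzeta replicate 4-2. Slc2a10 (Entrez 170441, chromosome 2 from 165503897 to 165519917), whose loss in people causes arterial tortuosity, had 1.78, 2.85 and 3.74 CPM against 3.01, 2.58 and 3.87 CPM (log2 fold change -0.18, SE 0.34). Slc2a13 (Entrez 239606, chromosome 15 from 91267691 to 91573261), which carries myo-inositol with protons, had 15.5, 9.89 and 12.8 CPM against 12.1, 11.5 and 15.8 CPM (log2 fold change -0.050, SE 0.24, 95% interval -0.60 to 0.50). It varied least of the 10, with the highest library 1.60-fold above the lowest. The edgeR adjusted p of these 3 genes lay between 0.917 and 0.983. Slc2a12, the other family row outside the 10, had 25 to 53 reads per library and a log2 fold change of -0.50 (SE 0.48).

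**Figure D4:**
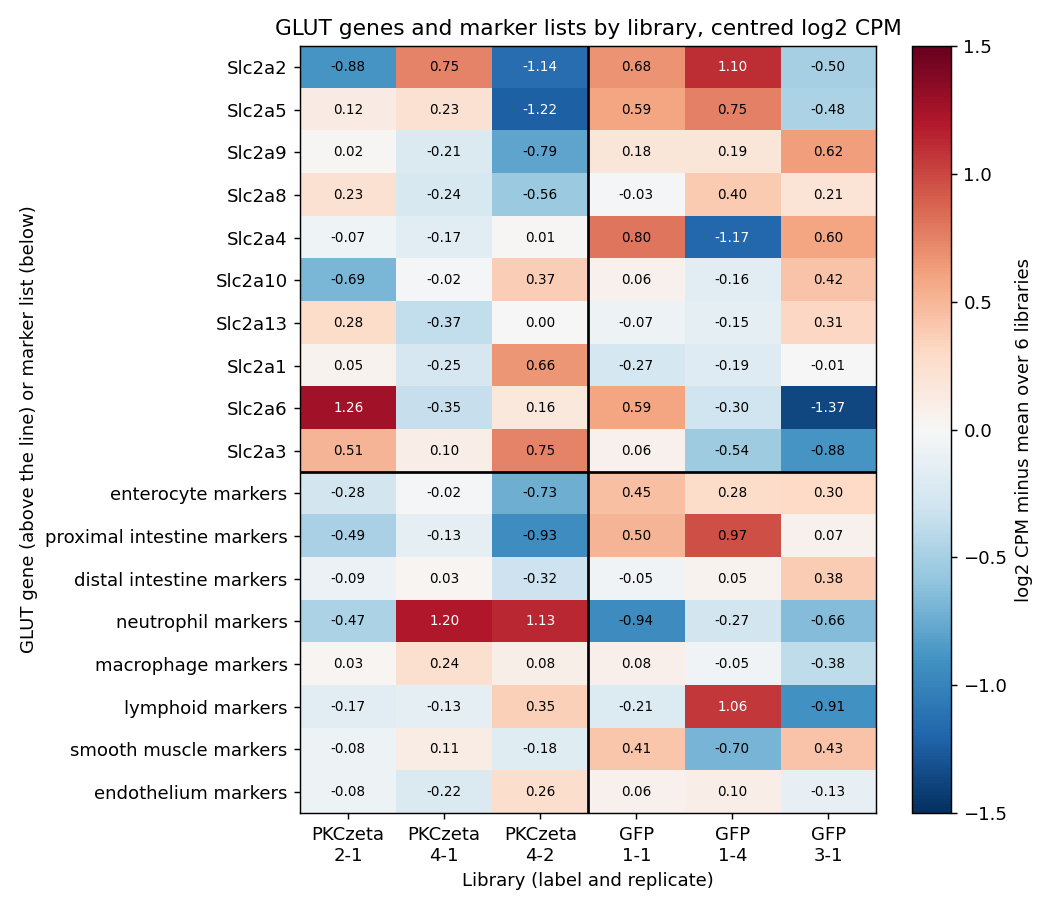
Log2 CPM of each GLUT gene (above the line) and log2 of the summed CPM of each marker list (below), minus its mean over the 6 libraries; PKCzeta-labelled libraries are on the left, red is above and blue below the mean. Slc2a2 and the proximal markers are both lowest in PKCzeta replicate 4-2 (-1.14 and -0.93) and highest in GFP replicate 1-4 (1.10 and 0.97), and Slc2a4 is lowest in GFP replicate 1-4 (-1.17), as are the smooth muscle markers (-0.70).

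The deposited FPKM and counts also give a length behind each value. The gene length that they imply was 2813 to 2833 bases for Slc2a1 with the PKCzeta label and 2827 to 2854 bases with the GFP label. For Slc2a3 it was 4421, 4369 and 4636 bases in PKCzeta replicates 2-1, 4-1 and 4-2, against 4395, 4366 and 4363 bases in GFP replicates 1-1, 1-4 and 3-1. PKCzeta replicate 4-2 stood apart there, while the other 5 libraries lay within 4363 to 4421 bases. For Slc2a6 it was 2376, 2211 and 2336 bases against 2373, 2345 and 2358 bases, with PKCzeta replicate 4-1 the shortest.

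The genes that act beside the GLUT carriers were read from lists. Of the 7 sodium-glucose transporter genes 5 were tested and all 5 had values below 0 (median log2 fold change -0.90), with 2 lower at an unadjusted edgeR p under 0.05 (3.07% of all tested genes were) and 0 past the adjusted threshold. Slc5a1, which encodes SGLT1 and made up most of the list's summed CPM in every library, overlapped between the groups. It had 1654, 3050 and 1240 CPM with the PKCzeta label and 2634, 2708 and 2080 CPM with the GFP label (log2 fold change -0.32, SE 0.34). The 3 genes with the smallest p stood far lower. Slc5a4b, a relative of the SGLT1 gene, stood at 7.61, 15.4 and 7.004 CPM with the PKCzeta label and at 36.6, 123 and 27.7 CPM with the GFP label. Slc5a9, a mannose and glucose transporter, had 9.36 ± 2.32 against 18.2 ± 2.47 CPM, and Slc5a11, a myo-inositol transporter, 32.1 ± 16.8 against 59.9 ± 9.42 CPM. All 4 genes of disaccharidases, which release the hexoses, were below 0 (median -0.82), with 2 lower at an unadjusted edgeR p under 0.05, again beside 3.07%. The lists share genes, so their counts are not separate results. Lct is also among the enterocyte and proximal markers, and Gata4 (below) is among the proximal ones. Mgam, the maltase-glucoamylase, had 4007 ± 879 against 6302 ± 1247 CPM. Treh, the trehalase, had 67.5 ± 36.4 against 133 ± 17.9 CPM, and Lct, the lactase, 22.9 ± 34.9 against 119 ± 80.4 CPM.

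Among 15 genes of hexose phosphorylation and fructolysis, 6 were above and 9 below 0 (median -0.14). Khk, ketohexokinase, the first enzyme of fructose use, had 109.9, 101 and 54.03 CPM with the PKCzeta label and 123, 165 and 138 CPM with the GFP label (log2 fold change -0.68, SE 0.27). Its groups did not overlap, its unadjusted edgeR p was 0.0345 and its adjusted p 0.877. Hk1, a widely expressed hexokinase, had 17.6 ± 0.690 against 15.1 ± 0.407 CPM (log2 fold change 0.22, SE 0.17), and Hk3, the hexokinase of white cells, 1.41 ± 0.653 against 0.734 ± 0.237 CPM. Of 12 genes of carbohydrate sensing 11 were tested, 4 above and 7 below 0 (median -0.15). They included Mlxipl, which encodes the transcription factor ChREBP (log2 fold change -0.36, SE 0.29), its partner Mlx (-0.23, SE 0.14) and the pyruvate kinase gene Pklr (-0.35, SE 0.24). Of 19 genes of GLUT trafficking 7 were above and 12 below 0 (median -0.079). Those with the smallest p were Sort1, a sorting receptor (-0.33, SE 0.20), the myosin gene Myo1c (0.22, SE 0.14) and the Rab regulator gene Tbc1d1 (-0.25, SE 0.16). In these 3 lists 0 genes passed the adjusted threshold, and 1, Khk, had an unadjusted edgeR p under 0.05, as did 5.48% of all tested genes.

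Of 21 hypoxia and glycolysis genes, a set of which Slc2a1 is a known companion, 6 were above and 15 below 0 (median -0.15). Slc16a3, the lactate exporter, had 10.3 ± 1.51 CPM with the PKCzeta label and 18.4 ± 3.19 CPM with the GFP label, and the hormone gene Adm 4.91, 2.78 and 1.78 CPM against 6.28, 3.28 and 26.2 CPM. Pfkfb4, an enzyme that sets the pace of glycolysis, had a log2 fold change of -0.45 (SE 0.21). Slc2a1 itself was on the other side of 0. Of 18 transcription factors of intestinal identity 17 were tested, 4 above and 13 below 0 (median -0.23). Gata4, a factor of the upper intestine, had 0.978 ± 0.209 against 6.24 ± 4.05 CPM, its relative Gata6 33.02 ± 3.87 against 50.1 ± 7.29 CPM, and Creb3l3, a factor of lipid metabolism, 167 ± 47.4 against 322 ± 79.3 CPM. In these lists, too, 0 genes passed the adjusted threshold in edgeR, with 0 higher and 5 lower at an unadjusted p under 0.05, beside 2.41% higher and 3.07% lower over all tested genes.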

How the data were processed

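The deposited table gives read counts, FPKM and TPM per gene for 6 libraries. Per the labels' protocols, ribosomal RNA was depleted from total RNA and the library kit keeps the strand. The submitters' processing notes name FastQC, Trimmomatic, HISAT2 and StringTie and the build mm10, without versions. Neither the counting program nor its use of strand is given in the sources used here. The counts were deposited as unscaled whole numbers. Per the file headers, the deposited FPKM values are scaled to length and library size, and were used only for implied lengths. The TPM values, as deposited, correct for length and share 1 total across libraries, and were used for levels between genes.

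The test was edgeR's (version 4.0.16, R 4.3.3): filterByExpr (18456 of 45777 genes kept), TMM, a robust quasi-likelihood F test, two-sided, Benjamini-Hochberg over all tested genes, threshold 0.05. Exact permutation tests used log2 CPM with a prior count of 2. The biological coefficient of variation was 0.354, beside which counting error is small except for the least counted members. DESeq2 1.42.0 and limma 3.58.1 were alternatives. Positions are RefSeq's for GRCm38, and 45679 gene IDs matched. The members, the gene lists and the rule for named genes (all members, Prkcz, the 3 genes with the smallest p per pathway list, and the 5 most alike for Slc2a1, Slc2a2 and Slc2a5) were chosen with earlier results of these data known. Gm4482, Camp, Ngp, Ly6g, S100a8, Cd177, Cxcr2, Mmp8, Jchain, Ces2e, Apoa4 and Slc5a1 were chosen after their values were seen. They are named beside those genes, as are the family rows Slc2a7 and Slc2a12.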

Additional observations from a re-analysis of the deposited data

How the results depend on the processing

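Across the 10 alternative settings and the 6 fits that each left out 1 library, 0 of the 10 GLUT genes were called in any fit. Over all genes 0 were called in every edgeR and limma fit, and DESeq2 called 87, none of them a GLUT gene. Slc2a1, Slc2a3 and Slc2a6 kept a log2 fold change above 0, and Slc2a2, Slc2a5, Slc2a8 and Slc2a9 one below 0, in all of these fits, though their sizes moved. With limma voom and sample quality weights the log2 fold change was 0.20 for Slc2a1, -0.33 for Slc2a2, -0.25 for Slc2a5, -0.30 for Slc2a10 and -0.21 for Slc2a13. With the epithelial score it was 0.45 for Slc2a6 and -0.11 for Slc2a10. On log2(TPM + 1) it was -0.35 for Slc2a5, 0.40 for Slc2a6, -0.12 for Slc2a8 and -0.41 for Slc2a9. On that scale the sign turned for Slc2a4 (0.030), Slc2a10 (0.032), Slc2a13 (0.12) and Prkcz (0.053), and on log2(TPM + 0.1) likewise (0.095, 0.014, 0.16 and 0.055). The median of all genes was itself 0.14 and 0.23 there, so none of these 8 values lay above it. Without 1 library at a time, the log2 fold change ranged from -0.44 to 0.013 for Slc2a10, from -0.27 to 0.11 for Slc2a13 and from -0.35 to 0.047 for Prkcz. It ranged from 0.064 to 0.54 for Slc2a1, from -1.58 to -0.37 for Slc2a2, from -0.82 to -0.20 for Slc2a5, from 0.041 to 1.28 for Slc2a6, from -0.78 to -0.065 for Slc2a4 and from -0.63 to -0.19 for Slc2a8. The cause of these shifts was not tested. The order of levels on CPM per kilobase was that on TPM, with 4 of 9 neighbouring pairs apart in GFP-labelled libraries on either scale, but Slc2a5 over Slc2a9 was apart over all 6 libraries on TPM alone. No paired analysis was possible because the replicate numbers of the 2 groups are not shared. The number before the hyphen in them is not explained and is nested in the groups, so a batch that it may mark and the label cannot be told apart. The SE of the members' log2 fold changes, 0.24 to 0.59, sets what 3 libraries per group can show.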
